A study of Mus musculus with 9 samples.

Results

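The subunits of the mitochondrial respiratory chain and the ATP synthase were described in 9 RNA sequencing libraries of sorted dermal cells. Members were all rows of the deposited table with a gene symbol of the families Nduf (complex I), Sdh (complex II), Uqcr (complex III), Cox4 to Cox8 (complex IV) or Atp5 (the ATP synthase), or a protein gene of mitochondrial DNA. The rule gave 99 rows of 84809 in all, of which 24946 carried a gene symbol. The cells came from the dermis of newborn mice of the genotype Krt14 cre;Rosa26-mTmG, in which the keratinocyte promoter Krt14 drives Cre recombinase and a fluorescent membrane reporter at Rosa26 changes colour where Cre has acted. All groups carried both alleles, and the labels name no treatment. Freshly isolated cells had been sorted on CD49f, the integrin alpha 6 chain, into 3 gates labelled as mesenchymal, CD49f-neg, CD49f-low and CD49f-high, with replicates 1 to 3 of each. The labels do not say whether a replicate was 1 animal or a pool, or whether the reporter was used in the sort.

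The respiratory chain passes electrons from NADH and succinate through complexes I, II and III to oxygen at complex IV, and the ATP synthase uses the proton gradient that results. Most subunits are encoded in the nucleus and made in every cell, while a small core of complexes I, III, IV and V is encoded in mitochondrial DNA. Several nuclear subunits of complex IV also come as tissue isoforms that take the place of a ubiquitous partner. Cox4i2 is such an isoform of lung and of the mural cells of blood vessels (pericytes and smooth muscle), with a role in oxygen sensing. Ndufa4l2 is a paralog of Ndufa4 that is induced by hypoxia-inducible factors. Cox6a2, Cox7a1 and Cox8b are isoforms of heart and skeletal muscle, the last pair also of brown fat, and Cox6b2 and Cox7b2 are isoforms of testis.

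By role, 36 rows belonged to complex I, 4 to complex II, 8 to complex III, 12 to complex IV (Ndufa4 included) and 19 to the Atp5 group. A further 6 rows were of mitochondrial DNA, 7 were assembly factors of complex I (Ndufaf) and 7 were tissue isoforms. In the Atp5 group, Atp5sl and Atp5s are not subunits of the enzyme, and Atp5l-ps1 and Atp5l2-ps are annotated as pseudogenes of a subunit. Levels were deposited as FPKM (fragments per kilobase of transcript scaled to the mapped fragments of the library), so levels of different genes can be compared per length. Of the 99 rows, 94 reached 1 FPKM in at least 3 libraries and were tested. The 5 that did not were the subunit Atp5l, the assembly factor Ndufaf2, and the isoforms Cox6a2, Cox7b2 and Cox8b. Cox7a1 reached the filter through CD49f-high alone. In 11 rows the authors had joined a member with other genes, and such rows are named as joined where their values are given.

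The 3 gates differed in the cell types their transcripts marked. The summed FPKM of 12 markers of pericytes and mural cells was 55.1 to 68.0 in CD49f-neg, 111 to 196 in CD49f-low and 887 to 1597 in CD49f-high. Of these, 12 of 12 were called higher in CD49f-high over CD49f-neg, against 13.9% of all tested rows. One of them, Higd1b, passed the filter on low values only through CD49f-high, so its call is a description. The sum of 6 fibroblast markers was 13520 to 16510, 5403 to 6615 and 3920 to 5920 in the same order. A melanocyte list summed to 409 to 503 in CD49f-low against at most 50.5 elsewhere, and a Schwann cell list to at most 0.516 in CD49f-neg, at least 39.6 in CD49f-low and at least 33.3 in CD49f-high. Endothelial, keratinocyte and immune lists summed to at most 14.8, 35.6 and 3.39 in any library. Replicate 1 of CD49f-high stood apart in fat cell genes: 8 adipocyte markers summed to 264.6 FPKM there and to 3.86 to 28.8 in the other 8 libraries. Its Adipoq, the fat cell hormone adiponectin, stood at 131.9 FPKM, while the brown fat markers Ucp1 and Cidea were at most 0.173 and 0.435 FPKM in any library. Its 4 erythroid markers, of red blood cells, summed to 287.7, against 37.4 and 34.8 in the other CD49f-high libraries. That list also stood high in CD49f-low replicate 1 (292.7, against 73.3 and 74.7) and ran from 119.8 to 473.3 in CD49f-neg. A skeletal muscle list summed to 3.38 to 4.70 in CD49f-neg, 16.1 to 20.8 in CD49f-low and 32.4 to 63.3 in CD49f-high, the last mostly Des, which mural cells also make. Its myogenic regulators were highest in CD49f-low, where Myog stood at 4.35 to 8.23, Myod1 at 2.05 to 3.09 and Pax7 at 0.908 to 1.51, against at most 0.0798, 0 and 0.0359 in CD49f-neg. The muscle creatine kinase Ckm was at most 0.182 in any library. In these bulk libraries more cells of a type and more RNA per cell cannot be told apart.

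Of the members that passed the test, 3 tissue isoforms had the highest fold changes, and all 3 rose in CD49f-high. Cox4i2 (chromosome 2, 152754173 to 152765037, plus strand, GRCm38) stood at 1.80, 2.42 and 1.15 FPKM in CD49f-neg replicates 1 to 3 and at 1.85, 2.72 and 3.57 in CD49f-low. In CD49f-high it stood at 47.5, 22.2 and 37.9 FPKM, so that all 3 libraries lay above all 6 others. The means were 1.79 ± 0.632, 2.71 ± 0.862 and 35.9 ± 12.8 FPKM (SD, n = 3 libraries per gate). The difference on the log2(FPKM + 1) scale was 3.69 (SE 0.29) between CD49f-high and CD49f-neg (limma adjusted p = 2.3e-05) and 3.27 (SE 0.29) between CD49f-high and CD49f-low (limma adjusted p = 8.9e-05). Between CD49f-low and CD49f-neg it was 0.41 with a 95% interval of -0.23 to 1.05, which did not pass the test (limma adjusted p = 0.342). Fold changes on this scale understate the change of genes of low FPKM: the ratio of the mean FPKM was 20.1 for CD49f-high over CD49f-neg. The mural cell markers given above moved with Cox4i2, and their part in its level was not tested.

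Ndufa4l2 (chromosome 10, 127514939 to 127517152, plus strand) was expressed in every library. It stood at 34.6, 16.3 and 14.0 FPKM in CD49f-neg, at 17.8, 6.89 and 11.1 in CD49f-low and at 123, 56.4 and 66.2 in CD49f-high. Replicate 1 was the highest of its gate each time, and CD49f-high did not overlap either other gate. The gene rose by 1.90 (SE 0.42) over CD49f-neg (limma adjusted p = 0.00966) and by 2.69 (SE 0.42) over CD49f-low (limma adjusted p = 0.00215). From CD49f-neg to CD49f-low the difference was -0.79 (SE 0.42), which did not pass the test (limma adjusted p = 0.222). With the replicate number as a block it did, with an SE of 0.149 (limma adjusted p = 0.00952). The gene Shmt2 on the opposite strand overlaps the 3′ end of Ndufa4l2, and Shmt2 stood at 10.2 to 17.3 FPKM with no called difference.

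Cox7a1 (chromosome 7, 30184144 to 30186078, plus strand) was low outside CD49f-high. It stood at 0.557, 0.983 and 0.720 FPKM in CD49f-neg, at 0.731, 1.23 and 0.576 in CD49f-low and at 7.99, 2.502 and 1.70 in CD49f-high. All CD49f-high libraries were above the others, and replicate 1, the library with the high adipocyte markers, was highest. The difference was 1.33 (SE 0.38) from CD49f-neg (limma adjusted p = 0.0307) and 1.27 (SE 0.38) from CD49f-low (limma adjusted p = 0.0477). Since the row passed the filter on low values only through CD49f-high, these calls are a description. The first was lost when any 1 of the CD49f-neg libraries was left out, and the second also when any 1 of the CD49f-low libraries or CD49f-high replicate 2 was. Without CD49f-high replicate 1 the differences were 0.82 (limma adjusted p = 0.0205) and 0.75 (limma adjusted p = 0.035).

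The other muscle isoforms were near or at 0. Cox6a2 was listed at 0 in 6 libraries and reached at most 0.124 FPKM. Cox8b was at 4.43 FPKM in CD49f-high replicate 1, at 0 in the other CD49f-high libraries and at most 0.247 elsewhere. The adipocyte markers were high in the same library, as were the erythroid markers, and their part in the level was not tested. In CD49f-low, where the myogenic genes were highest, Cox6a2 and Cox8b were at most 0.0568 and 0.247 FPKM. Of the testis isoforms, Cox7b2 was at most 0.055 FPKM. Cox6b2 stood at 2.73 ± 0.542, 4.11 ± 0.446 and 3.28 ± 1.12 FPKM in the 3 gates from negative to high (SD, n = 3), and none of its differences passed the test.

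**Figure D1:**
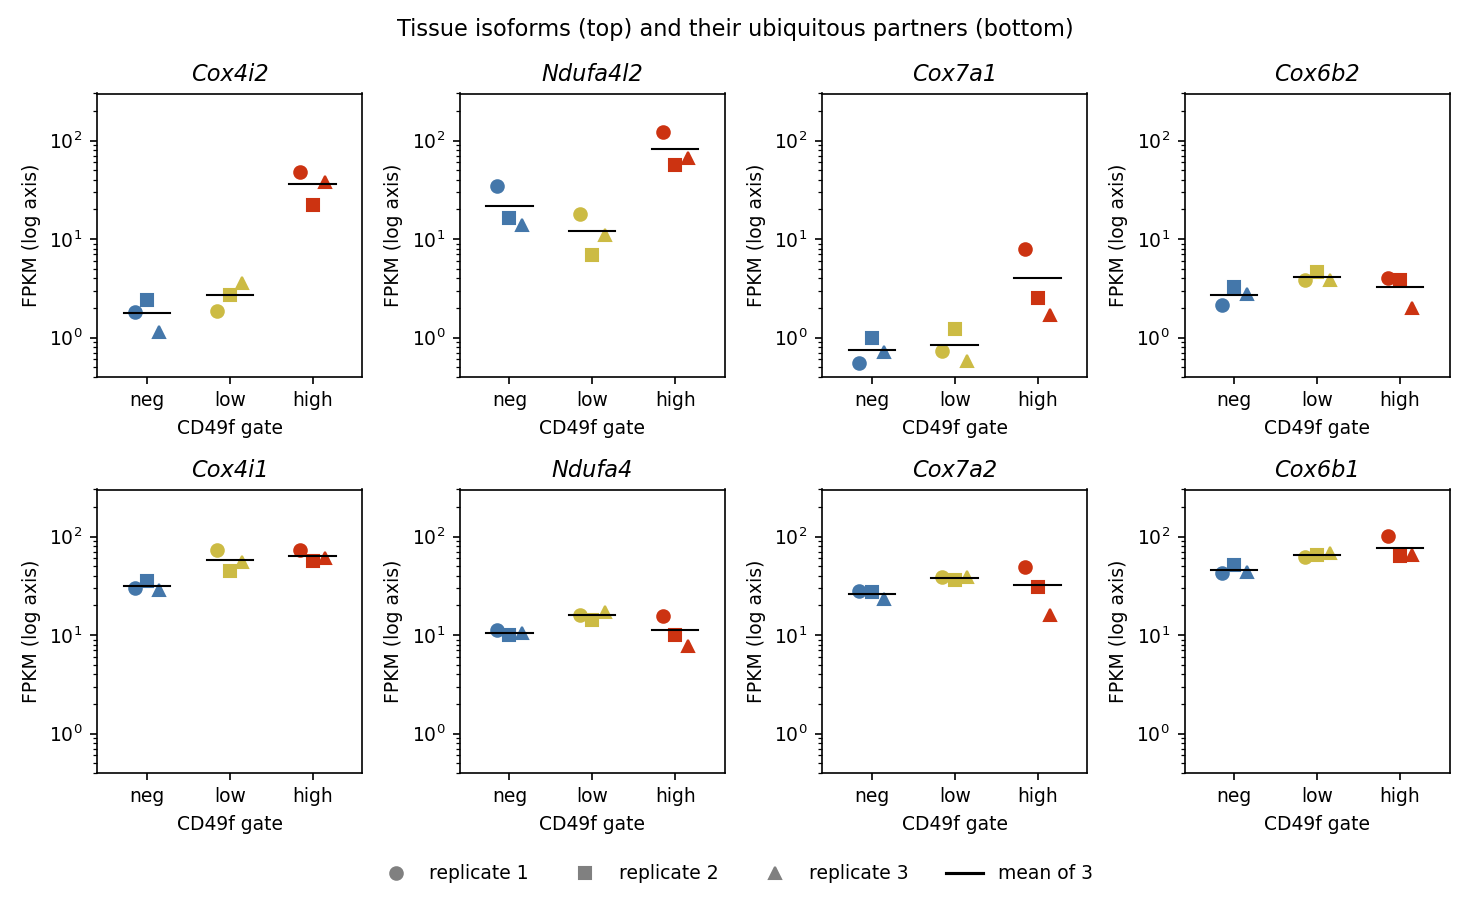
FPKM on a log axis for 4 tissue isoforms (top row) and their ubiquitous partners (bottom row) in the 3 CD49f gates; each point is a library, its shape the replicate, and each line the mean of 3. Cox4i2, Ndufa4l2 and Cox7a1 lie apart in CD49f-high, while Cox6b2 and the partners in the bottom row lie closer together across the gates.

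The ubiquitous partners of these 3 isoforms had smaller differences. Cox4i1, the common form of subunit 4 (chromosome 8, 120668222 to 120674207), stood at 30.1, 35.6 and 28.5 FPKM in CD49f-neg, at 73.2, 44.6 and 55.6 in CD49f-low and at 73.0, 55.9 and 61.0 in CD49f-high. CD49f-neg was below both other gates without overlap. It rose by 0.99 (SE 0.18) in CD49f-high over CD49f-neg (limma adjusted p = 0.00397) and by 0.84 (SE 0.18) in CD49f-low over CD49f-neg (limma adjusted p = 0.0158). The latter call was lost after median-of-ratios scaling (difference 0.51, limma adjusted p = 0.0991), and when either the third CD49f-neg or the third CD49f-low library was left out. A longer gene model on the same strand, Gm20388, spans Cox4i1 and is in a row joined with Usp10 and Galnt2. That row stood at 14.7 to 18.5 FPKM in CD49f-neg and 11.2 to 13.2 in CD49f-high, a difference of -0.43 (limma adjusted p = 0.0203), opposite in direction to Cox4i1.

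Ndufa4, now counted as a subunit of complex IV, stood at 11.3, 10.1 and 10.5 FPKM in CD49f-neg, at 16.0, 14.4 and 17.1 in CD49f-low and at 15.8, 10.1 and 7.70 in CD49f-high. None of its differences passed the test. Without CD49f-high replicate 1 it passed in both comparisons with CD49f-low, which was 0.53 above CD49f-neg (limma adjusted p = 0.0192), while CD49f-high differed from CD49f-low by -0.77 (limma adjusted p = 0.00623). Cox7a2, the partner of Cox7a1, spread from 15.9 to 49.3 FPKM within CD49f-high and passed no test. Cox8a rose from 68.2 ± 8.60 to 139 ± 66.3 FPKM between CD49f-neg and CD49f-high (SD, n = 3), a difference of 0.92 (limma adjusted p = 0.0363). Its CD49f-high values were 214, 115 and 88.4 FPKM, and without replicate 1 the difference was 0.56 (limma adjusted p = 0.0299). The call was lost when any 1 library of CD49f-neg or CD49f-low, or CD49f-high replicate 2, was left out. Cox6a1 stood at 87.1, 87.4 and 76.2 FPKM in CD49f-neg and at 158, 97.1 and 119.7 in CD49f-high, a difference of 0.55 (limma adjusted p = 0.0449), a call that was lost after median-of-ratios scaling and when any 1 library but CD49f-high replicate 2 was left out.

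Within a pair, the isoform made up a different share of the summed FPKM from gate to gate. Cox4i2 made up 39.4%, 28.5% and 38.3% of the Cox4i2 and Cox4i1 sum in CD49f-high, against 2.46% to 6.36% in the other 6 libraries. Ndufa4l2 made up 88.6%, 84.8% and 89.6% of its pair with Ndufa4 in CD49f-high, 57.1% to 75.5% in CD49f-neg and 32.4% to 52.8% in CD49f-low, and the 3 gates did not overlap. Cox7a1 made up 7.53% to 13.9% of its pair in CD49f-high and 1.46% to 3.44% elsewhere. Cox8a and Cox6a1 made up nearly all of their pairs: Cox8b held at most 2.03% and Cox6a2 at most 0.0784%. Since both genes of a pair are read in the same library, these shares do not move with a scaling of the library.

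Promoter sequence was available from RefSeq (GRCm38.p6) for 76 of the 93 nuclear member genes and is shown for the pair Cox7a1 and Cox7a2, whose shares differed between gates, and for Cox6a1, a complex IV gene that holds motifs of the factors named here. Each run covers the 250 bases before the annotated start, 5′ to 3′ on the gene's strand: Cox7a1 chr7:30183921-30184170 (plus), Cox7a2 chr9:79759854-79760103 (minus) and Cox6a1 chr5:115348959-115349208 (minus). Capitals mark matches, on either strand, to the consensus of nuclear respiratory factor NRF1 or to CCGGAAG (the site of ETS factors such as GABP), and ACGTG, the core of the hypoxia response element, was searched too.
Cox7a1: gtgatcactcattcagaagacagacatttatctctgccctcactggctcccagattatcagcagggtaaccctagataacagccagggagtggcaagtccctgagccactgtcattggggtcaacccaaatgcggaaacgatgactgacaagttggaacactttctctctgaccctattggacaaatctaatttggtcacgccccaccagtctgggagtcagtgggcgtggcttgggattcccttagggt
Cox7a2: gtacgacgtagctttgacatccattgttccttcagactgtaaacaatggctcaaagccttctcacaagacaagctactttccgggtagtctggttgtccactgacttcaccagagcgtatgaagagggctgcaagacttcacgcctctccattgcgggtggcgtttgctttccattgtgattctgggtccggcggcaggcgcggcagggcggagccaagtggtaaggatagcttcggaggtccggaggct
Cox6a1: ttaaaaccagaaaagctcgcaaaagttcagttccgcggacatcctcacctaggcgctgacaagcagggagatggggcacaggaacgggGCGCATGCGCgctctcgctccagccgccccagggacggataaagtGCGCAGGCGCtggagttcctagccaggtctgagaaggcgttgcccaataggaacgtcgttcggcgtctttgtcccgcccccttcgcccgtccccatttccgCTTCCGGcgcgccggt
In Cox6a1, the NRF1 consensus began 162 and 117 bases before the start and CCGGAAG, read on the opposite strand, 16 bases before it. None of these letter strings was in the windows of Cox7a1 and Cox7a2.

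Over the 66 core subunit genes with a promoter entry, 13 (19.7%) held the NRF1 consensus, against 4.23% of all 27025 genes in the table, in windows of the same length. CCGGAAG was held by 12 (18.2%) against 7.83%, and ACGTG by 15 (22.7%) against 18.5%. A gene was counted once, however many matches it held. Of the 4 tissue isoforms with an entry, only Cox8b held any of these motifs (ACGTG). The promoters of Cox4i2 and Ndufa4l2 were not searched here, since the table holds no entry for them. A match is a string of letters in this window, and binding was not measured.

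Few differences passed the test in any comparison, counted here over all tested members, tissue isoforms included. Between CD49f-low and CD49f-neg, 2 of 94 members were called and both rose, Cox4i1 and Ndufv1, where limma called 15.4% of all 20523 tested rows (12.8% higher and 2.62% lower). At an unadjusted p under 0.05 there were 27. The share of all rows at that unadjusted threshold was not counted, and it cannot be below 15.4%, since adjustment never lowers a p. Between CD49f-high and CD49f-neg, 13 of 94 members were called, 12 higher and 1 lower, against 22.1% of all rows (13.9% higher and 8.27% lower). Between CD49f-high and CD49f-low, 6 were called, 4 higher and 2 lower, against 16.4% of all rows (5.93% higher and 10.5% lower). Of the 84 tested nuclear members that are no tissue isoform, 2 were higher in CD49f-low than in CD49f-neg (12.8% of all rows). Of these 84, 9 were higher and 1 lower in CD49f-high than in CD49f-neg (13.9% and 8.27%). Compared with CD49f-low, 1 was higher and 2 lower in CD49f-high (5.93% and 10.5%). The F test over the 3 gates called 8 members, against 28.5% of all rows. In each comparison the share of members called was below the share of all rows. With the replicate number as a block 8 members were called between CD49f-low and CD49f-neg, 7 higher and 1 lower, against 24.0% of all rows higher and 4.34% lower. With that block 6 were called between CD49f-high and CD49f-low, against 8.07% of all rows higher and 17.8% lower, and 17 between CD49f-high and CD49f-neg, 16 higher and 1 lower, against 19.7% and 11.6%.

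The members' differences were read against the shift of the whole table. The median log2 difference from CD49f-neg to CD49f-low was 0.33 over the members and 0.21 over all tested rows, with 91 of 94 members above 0 against 78.1% of all rows. Median-of-ratios scaling moved the median of all rows from 0.21 to -0.03 there and from -0.15 to 0.01 between CD49f-high and CD49f-low. After that scaling the members' median from CD49f-neg to CD49f-low was 0.05, 57 of 94 members were above 0, against 46.1% of all rows, and none was called by limma, with 3 at an unadjusted p under 0.05. In the same setting 5.03% of all rows (1033) were called higher and 1231 rows lower, against 2623 and 537 as deposited. This scaling brings the median of all rows near 0 by construction. The members' median fell with it, from 0.33 to 0.05. From CD49f-neg to CD49f-high the members' median was 0.26 against 0.07 for all rows, with 80 of 94 members above 0 against 58.8%. After scaling it was 0.16 against -0.02, with 67 of 94 above 0 against 48.2%. From CD49f-low to CD49f-high it was -0.07 against -0.15, and 0.12 against 0.01 after scaling, with 4 members called higher and 1 lower in place of 4 and 2, against 8.21% and 6.03% of all rows. After quantile normalization 1 member was called between CD49f-low and CD49f-neg, against 5.07% of all rows higher and 4.89% lower, and 5 between CD49f-high and CD49f-low, 4 higher and 1 lower, against 7.68% and 6.97%.

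Groups that did not overlap, counted on FPKM as deposited and not after scaling, were more frequent than calls. In 52 of 94 members all CD49f-low libraries lay above all CD49f-neg libraries, against 34.8% of all rows, and in none below, against 5.77%. In 27 members all CD49f-high libraries lay above CD49f-neg, against 22.5% of all rows, and in 1 below, against 13.9%. In 4 members CD49f-high lay above CD49f-low (10.3% of all rows) and in 8 below (27.0% of all rows).

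**Figure D2:**
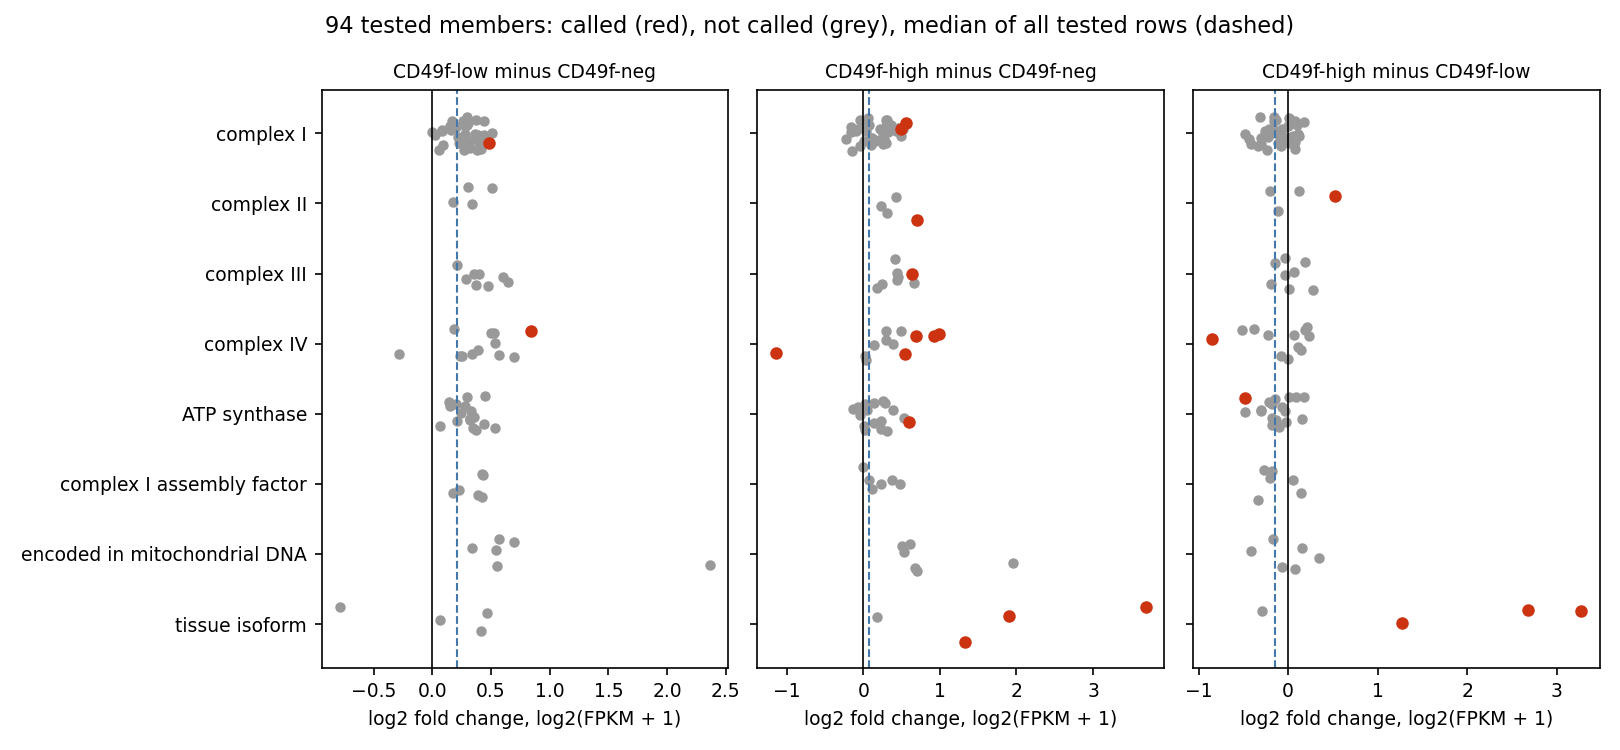
Log2 differences on the log2(FPKM + 1) scale of the 94 tested members, by role, for the 3 comparisons; red points passed the test, grey points did not, and the dashed line is the median of all tested rows. The red points farthest to the right in both comparisons with CD49f-high are tissue isoforms, and most core subunits lie close to the dashed line.

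Complex I takes electrons from NADH. Its 36 rows ran from Ndufab1, the acyl carrier protein, at a mean of 0.945 FPKM over the 9 libraries to Ndufa2 at 35.3. Ndufv1, the subunit that binds NADH and the flavin (chromosome 19, 4007497 to 4012806), stood at 6.31, 8.40 and 7.68 FPKM in CD49f-neg, at 10.9, 10.3 and 10.9 in CD49f-low and at 12.5, 10.01 and 11.7 in CD49f-high. All libraries of both positive gates were above those of CD49f-neg. It rose by 0.48 (SE 0.12) in CD49f-low (limma adjusted p = 0.0312) and by 0.55 (SE 0.12) in CD49f-high (limma adjusted p = 0.0105). The call in CD49f-low was lost after median-of-ratios scaling, where the difference was 0.18. It was also lost without CD49f-neg replicate 1 or 3 and without any of the 3 CD49f-low libraries, each in turn. Ndufs7, a subunit with an iron-sulfur cluster, rose by 0.49 from 7.06 ± 0.922 to 10.4 ± 2.05 FPKM in CD49f-high (SD, n = 3, limma adjusted p = 0.0457). That call was lost with the replicate block, after median-of-ratios scaling or quantile normalization, without the trend, and when any 1 library but CD49f-high replicate 3 was left out. The other 34 rows of complex I passed no test, and Ndufa2 stood at 33.4 ± 3.35, 35.3 ± 3.67 and 37.3 ± 4.15 FPKM from negative to high (SD, n = 3). The summed FPKM of complex I was 302 to 355 in CD49f-neg, 392 to 438 in CD49f-low and 494, 334 and 330 in CD49f-high.

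Of the assembly factors of complex I, which do not stay in the finished complex, 6 of 7 were tested and none was called by limma, with 3, 1 and 0 at an unadjusted p under 0.05 for CD49f-low over CD49f-neg, CD49f-high over CD49f-neg and CD49f-high over CD49f-low. Ndufaf1 had the highest mean, at 2.33 ± 0.604, 3.35 ± 0.603 and 2.59 ± 0.274 FPKM from negative to high (SD, n = 3). Ndufaf2, not tested, stood at 0.159 to 0.363 FPKM. With the replicate block Ndufaf7, a methyltransferase that acts on a complex I subunit, rose in both positive gates, by 0.43 in CD49f-low (limma adjusted p = 0.0191) and by 0.49 in CD49f-high (limma adjusted p = 0.00826).

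Complex II, succinate dehydrogenase, has 4 subunits and is also an enzyme of the citric acid cycle. Sdhc, a membrane anchor of the complex (chromosome 1, 171127165 to 171150603), stood at 6.34, 7.04 and 6.14 FPKM in CD49f-neg, at 7.39, 7.36 and 7.72 in CD49f-low and at 14.6, 8.85 and 10.96 in CD49f-high. The CD49f-high libraries lay above all others. Sdhc rose by 0.71 (SE 0.16) over CD49f-neg (limma adjusted p = 0.00931) and by 0.53 (SE 0.16) over CD49f-low (limma adjusted p = 0.0458). Without CD49f-high replicate 1 the differences were 0.53 (limma adjusted p = 0.0148) and 0.35 (limma adjusted p = 0.0805). The call over CD49f-low was lost when any 1 library but CD49f-high replicate 2 was left out. Sdha, the subunit that binds succinate, stood at 8.98 ± 1.54, 11.3 ± 0.731 and 12.5 ± 3.08 FPKM (SD, n = 3) and was not called, nor was the other anchor Sdhd, in a joined row. Sdhb, which holds the iron-sulfur clusters, differed by 0.34 between CD49f-low and CD49f-neg (limma adjusted p = 0.0818), and passed with the replicate block (limma adjusted p = 0.0495) and without CD49f-high replicate 1 (limma adjusted p = 0.0443).

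Complex III passes electrons from ubiquinol to cytochrome c. Of its 8 rows only Uqcrfs1, the Rieske iron-sulfur protein, was called. It stood at 24.2, 20.2 and 21.4 FPKM in CD49f-neg and at 48.2, 25.9 and 32.9 in CD49f-high, a difference of 0.63 (SE 0.20, limma adjusted p = 0.0466), which was lost after median-of-ratios scaling or quantile normalization, without the trend, and when any 1 library but CD49f-high replicate 2 was left out. Uqcrfs1 falls outside the rule for named genes and was named after its value was seen, as were Sdhb, Ndufs7, Ndufaf7 and the row of Atp5b. Uqcr10, a small subunit, had the highest mean of the complex, at 28.7 ± 3.38, 35.2 ± 2.03 and 35.0 ± 9.62 FPKM from negative to high (SD, n = 3). In 7 of the 8 rows CD49f-low lay above CD49f-neg without overlap in FPKM as deposited, against 34.8% of all rows. The summed FPKM of complex III had a ratio of CD49f-low to CD49f-neg of 1.315 as deposited. After median-of-ratios scaling that ratio was 1.043. The gene Gm12854 overlaps Uqcrh and stood at 105 to 205 FPKM, against 17.6 to 32.1 for Uqcrh.

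Complex IV, cytochrome c oxidase, had the most called core subunits, 4 higher and 1 lower between CD49f-high and CD49f-neg of 12 tested, against 13.9% of all rows higher and 8.27% lower. Besides Cox4i1, Cox6a1 and Cox8a, Cox6b1, a subunit on the outer face of the complex, stood at 42.7, 51.3 and 43.7 FPKM in CD49f-neg and at 102, 62.9 and 64.5 in CD49f-high. It rose by 0.69 (SE 0.18, limma adjusted p = 0.0213), and by 0.47 without CD49f-high replicate 1 (limma adjusted p = 0.0209). That call was lost when CD49f-neg replicate 1 or 3 was left out. The highest levels of the nuclear subunits were in this complex, with means over the 9 libraries of 106.0 FPKM for Cox8a and 104.8 for Cox6a1, and its lowest was Cox7c, in a joined row, at 4.26.

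Cox6c went the other way. This small nuclear subunit (chromosome 15, 35925886 to 35938246, minus strand) stood at 21.8, 31.0 and 26.0 FPKM in CD49f-neg, at 27.1, 18.4 and 18.9 in CD49f-low and at 14.0, 10.3 and 9.82 in CD49f-high. All CD49f-high libraries lay below all others, and replicate 1, which was the highest CD49f-high library for most members, was also below. Cox6c fell by 1.14 on the log2 scale (SE 0.19) from CD49f-neg (limma adjusted p = 0.00228) and by 0.85 (SE 0.19) from CD49f-low (limma adjusted p = 0.0146). The second call was lost without CD49f-high replicate 3 (limma adjusted p = 0.0554). Vps13b, a gene on the plus strand whose end overlaps Cox6c, stood at 14.0, 17.0 and 17.9 FPKM in CD49f-neg, between 9.66 and 13.1 in CD49f-low and at 6.82, 6.41 and 7.61 in CD49f-high. Vps13b fell by 1.12 between CD49f-neg and CD49f-high (limma adjusted p = 0.000362). The labels do not state that strand was used in counting, so reads of Cox6c and of the overlapping end of Vps13b cannot be told apart.

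**Figure D3:**
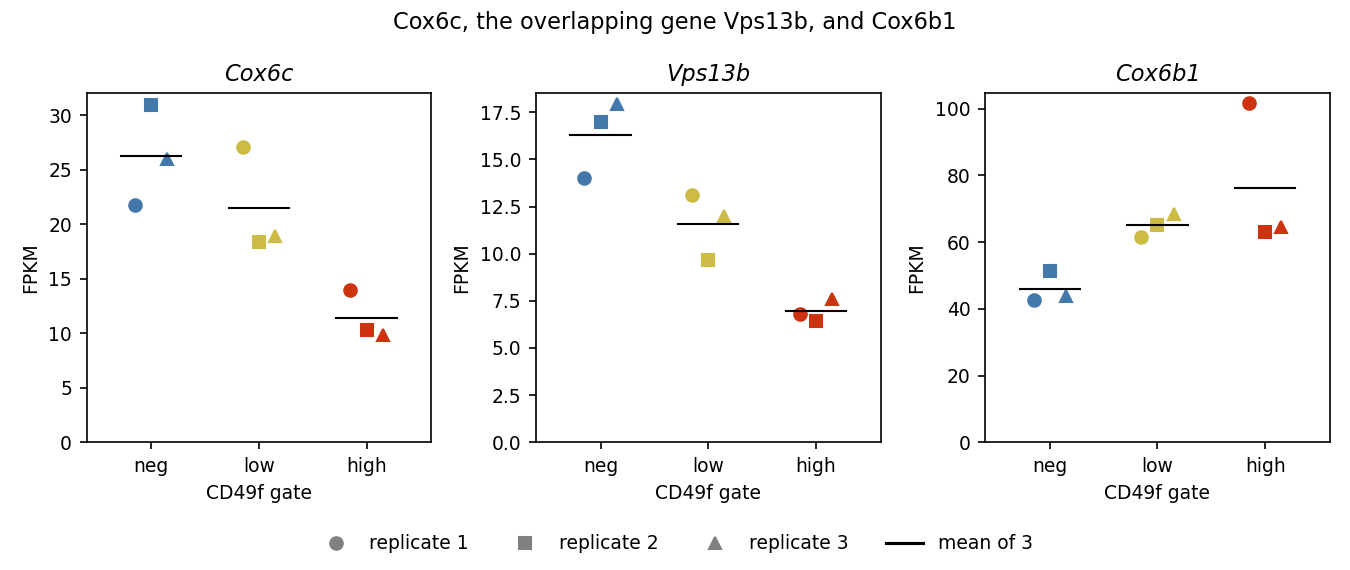
FPKM of Cox6c, of Vps13b, which overlaps it on the opposite strand, and of Cox6b1 in the 3 CD49f gates; points are libraries, shapes replicates and lines means of 3. Cox6c and Vps13b both lie lowest in CD49f-high, and Cox6b1 lies lowest in CD49f-neg.

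In the Atp5 group 1 of 18 tested rows was called between CD49f-high and CD49f-neg (13.9% of all rows were called higher), the row that joins Atp5b, the catalytic beta subunit, with Baz2a. It stood at 21.1 ± 2.18, 29.1 ± 1.45 and 33.2 ± 9.61 FPKM from negative to high (SD, n = 3), a difference of 0.60 (limma adjusted p = 0.0368), and 0.38 without CD49f-high replicate 1 (limma adjusted p = 0.0483). The call was lost after median-of-ratios scaling and when any 1 library of CD49f-neg or CD49f-low was left out. Atp5a1, the alpha subunit and the most abundant of the group, stood at 83.9, 80.3 and 79.7 FPKM in CD49f-neg, at 106, 93.0 and 98.1 in CD49f-low and at 127, 83.1 and 86.9 in CD49f-high. None of its differences passed the test. Atp5sl, which is a complex I assembly protein despite its name, fell by 0.48 (SE 0.13) from CD49f-low to CD49f-high (limma adjusted p = 0.0372), from 2.44 ± 0.206 to 1.47 ± 0.201 FPKM (SD, n = 3). That call was lost after median-of-ratios scaling, where the difference was -0.33, and when any 1 library but CD49f-neg replicates 1 and 3 was left out.

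The genes of mitochondrial DNA were the most abundant members, and none was called by limma, with 1 at an unadjusted p under 0.05 between CD49f-high and CD49f-neg and 0 in the other comparisons. The cytochrome oxidase core subunit mt-Co1 stood at 1097, 1813 and 1677 FPKM in CD49f-neg, at 2255, 2251 and 2052 in CD49f-low and at 3862, 2428 and 1535 in CD49f-high. CD49f-high thus overlapped both other gates, with replicate 1 highest of all libraries. The cytochrome b gene mt-Cytb and the complex I genes mt-Nd2 (joined with a transfer RNA), mt-Nd5 and mt-Nd6 were likewise highest in CD49f-high replicate 1. Between CD49f-high and CD49f-neg mt-Nd6, the only protein gene on the light strand, differed by 0.68 (limma adjusted p = 0.115), and with the replicate block it passed (limma adjusted p = 0.0477). The sixth row joins 13 genes, the large ribosomal RNA mt-Rnr2 among them, and ran from 288 to 7714 FPKM within CD49f-neg. Within CD49f-high it ran from 1006 to 9233, and its gates overlapped in every comparison.

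**Figure D4:**
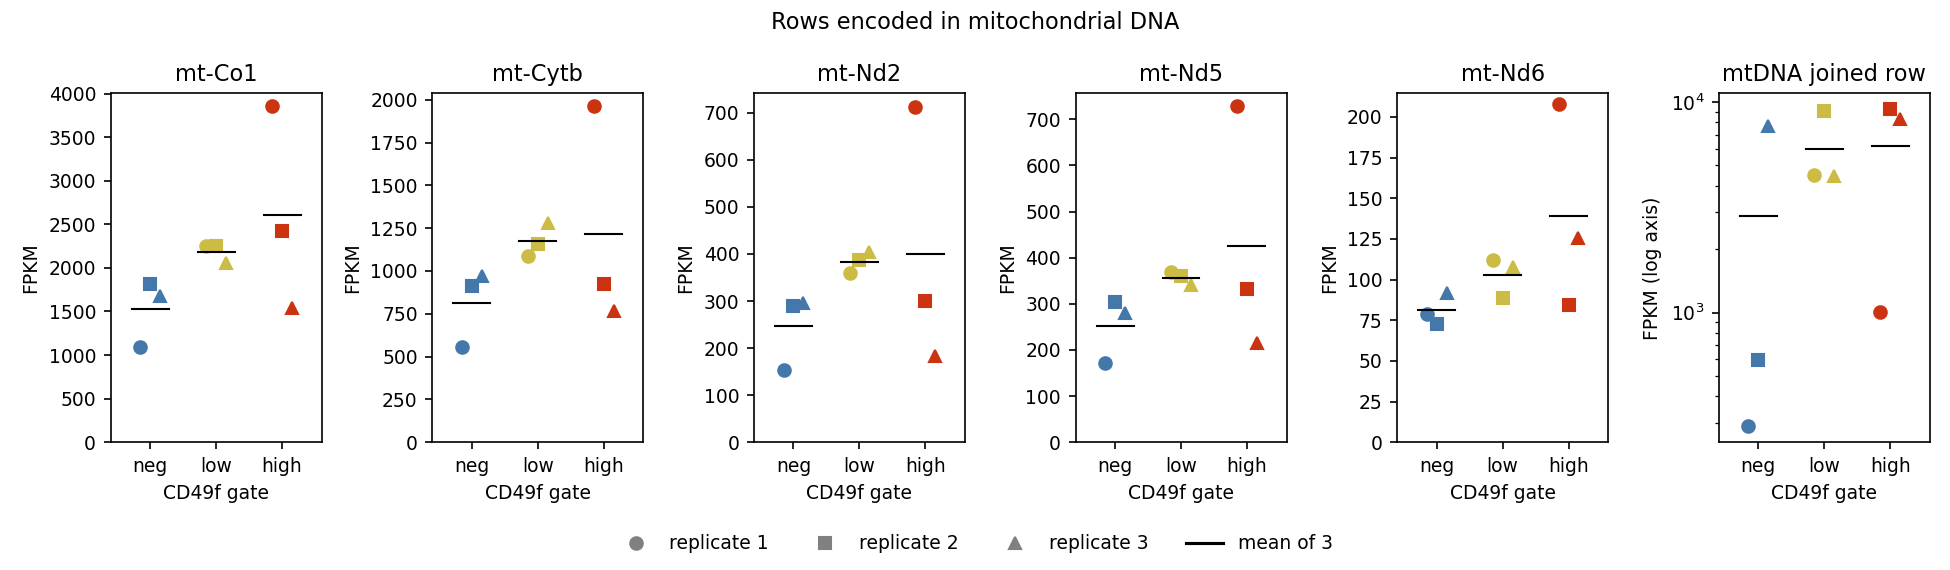
FPKM of the 6 rows of mitochondrial DNA in the 3 CD49f gates, the joined row on a log axis; points are libraries, shapes replicates and lines means of 3. In the 5 rows on linear axes CD49f-high replicate 1 is the highest library, and in the joined row it is the lowest of CD49f-high.

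CD49f-high replicate 1 stood highest in most members. It was the highest CD49f-high library in 84 of 94 tested members (89.4%) against 41.6% of all rows, and the highest of all 9 in 59 (62.8%) against 14.3%. Its median log2 difference from the mean of CD49f-high replicates 2 and 3 was 0.49 over the members and 0.04 over all rows. The 79 nuclear core rows are those of complexes I to IV and the whole Atp5 group, with Atp5sl, Atp5s, Atp5l-ps1 and Atp5l2-ps included. Their summed FPKM was 1044, 1143 and 1049 in CD49f-neg, 1389, 1380 and 1456 in CD49f-low, and 1889, 1215 and 1201 in CD49f-high. As deposited, CD49f-high replicates 2 and 3 thus lay between CD49f-neg and CD49f-low, and replicate 1 above all. The ratio of means to CD49f-neg was 1.31 for CD49f-low and 1.33 for CD49f-high, and 1.12 for CD49f-high without replicate 1. After median-of-ratios scaling these ratios were 1.04, 1.21 and 1.05. By complex, the ratio of CD49f-low to CD49f-neg ran from 1.25 (complex I) to 1.39 (complex IV) as deposited, and from 0.988 (complex I) to 1.11 (complex IV) after scaling. The ratio of CD49f-high to CD49f-neg ran from 1.17 (complex I) to 1.52 (complex IV) as deposited, and the same complexes stood at 1.01 and 1.25 without replicate 1. The summed FPKM of the 5 mitochondrial rows that were not the 13-gene row was 7477 in CD49f-high replicate 1 and 2057 to 4244 in the other 8 libraries. The adipocyte markers were high in the same library, and their part in these sums was not tested.

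Without CD49f-high replicate 1 the counts of calls changed. Between CD49f-low and CD49f-neg 18 members were called, all higher, against 15.3% of all rows called higher and 3.01% lower. After median-of-ratios scaling as well, none was, with 5 at an unadjusted p under 0.05. Between CD49f-high and CD49f-neg 10 were called, 9 of them higher, against 12.0% of all rows higher and 7.51% lower. Between CD49f-high and CD49f-low 9 were called, against 5.79% of all rows higher and 10.2% lower. The 3 higher were the tissue isoforms Cox4i2, Ndufa4l2 and Cox7a1, and the 6 lower were the core subunits Cox6c, Ndufa4, Ndufa7, Ndufb11, Ndufs6 and Atp5c1, the last 4 named after their values were seen.

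**Figure D5:**
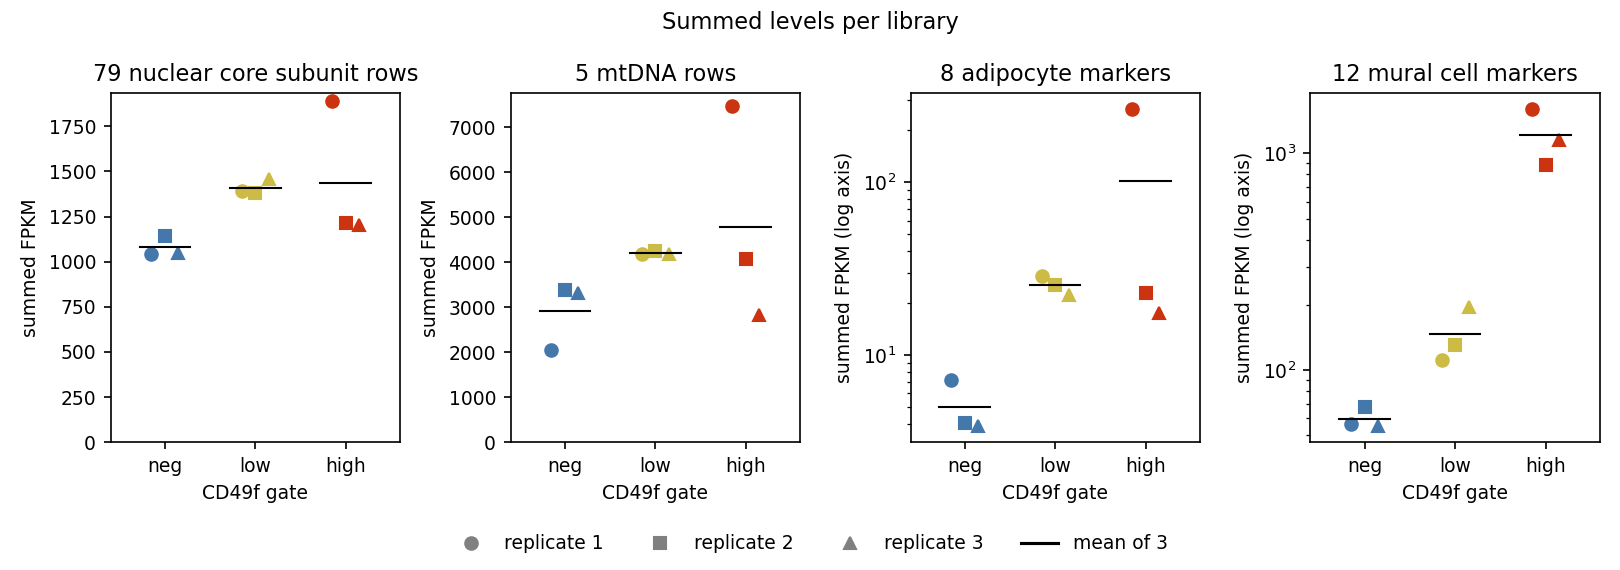
Summed FPKM per library of 79 nuclear core rows, of 5 rows of mitochondrial DNA, and of 8 adipocyte and 12 mural cell markers (the last pair on log axes) in the 3 CD49f gates; points are libraries, shapes replicates and lines means of 3. CD49f-high replicate 1 is highest in all 4 panels, and in the mural panel all CD49f-high libraries lie above the others.

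Genes around the respiratory chain were read from 6 lists. Of 19 tested genes of the hypoxia response, 5 were higher in CD49f-low and 8 in CD49f-high than in CD49f-neg, against 12.8% and 13.9% of all rows, with none lower. Between CD49f-high and CD49f-low 5 were higher and 1 lower, against 5.93% and 10.5% of all rows, and all these counts were the same without CD49f-high replicate 1. After median-of-ratios scaling 2 were higher and 1 lower in CD49f-low than in CD49f-neg, against 1033 and 1231 of all 20523 rows. In CD49f-high 8 were higher and 2 lower than in CD49f-neg after that scaling, against 11.8% and 11.1% of all rows. Between CD49f-high and CD49f-low 7 were then higher and 1 lower, against 8.21% and 6.03% of all rows. With the replicate block 5 were higher and 2 lower in CD49f-low, against 24.0% and 4.34% of all rows. In CD49f-high 8 were higher and 2 lower with that block, against 19.7% and 11.6%. Epas1, which encodes the hypoxia-inducible factor HIF-2 alpha, stood at 0.437, 0.223 and 0.131 FPKM in CD49f-neg, at 1.69, 1.73 and 3.30 in CD49f-low and at 47.1, 25.5 and 36.0 in CD49f-high. The 3 gates did not overlap, and the difference between CD49f-high and CD49f-neg was 4.84 (SE 0.24, limma adjusted p = 4.2e-06). Epas1 is also known from vessel cells. Pfkfb3, a regulator of glycolysis, rose by 1.93 (limma adjusted p = 0.000303) from 1.44 ± 0.392 to 8.47 ± 2.47 FPKM (SD, n = 3). Higd1b, a member of a hypoxia-induced family that is also on the mural marker list, stood at 0.0189 ± 0.0243 FPKM in CD49f-neg and 6.08 ± 2.05 in CD49f-high (SD, n = 3). It passed the filter on low values only through CD49f-high, so its calls, which the counts as reported include, are a description. The list median was 0.27 from CD49f-neg to CD49f-high against 0.07 for all rows. The mural markers rose in the same libraries, and their part in the hypoxia list was not tested.

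Of 16 tested genes of mitochondrial DNA transcription, replication and biogenesis, 3 were higher in CD49f-low and 2 in CD49f-high than in CD49f-neg, where 12.8% and 13.9% of all rows were. After median-of-ratios scaling the counts were 0 and 2, against 5.03% and 11.8% of all rows. Ppargc1b, a coactivator of mitochondrial biogenesis, stood at 0.449, 0.646 and 0.474 FPKM in CD49f-neg, at 1.54, 1.56 and 1.48 in CD49f-low and at 5.51, 2.80 and 2.68 in CD49f-high. It rose between each pair of gates in that order, by 1.56 (SE 0.20) in all (limma adjusted p = 0.000501), and by 1.30 without CD49f-high replicate 1. The step from CD49f-neg to CD49f-low was lost after median-of-ratios scaling (limma adjusted p = 0.101). Esrra, the nuclear receptor it acts on, stood in a joined row at 3.43 ± 0.510, 3.57 ± 0.157 and 5.38 ± 0.579 FPKM (SD, n = 3) and rose by 0.53 in CD49f-high over CD49f-neg (limma adjusted p = 0.0118). Polg, the polymerase of mitochondrial DNA, rose by 0.41 in CD49f-low over CD49f-neg (limma adjusted p = 0.0238), a call lost after median-of-ratios scaling (difference 0.12). Between CD49f-high and CD49f-low 2 genes of the list were higher and 1 lower (5.93% and 10.5% of all rows), and without CD49f-high replicate 1 there was 1 higher (5.79% of all rows).

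Of 19 tested genes of the citric acid cycle and pyruvate entry, 2 were higher in CD49f-low and 2 in CD49f-high than in CD49f-neg, near the 12.8% and 13.9% of all rows, and limma called none between the positive gates, with 0 at an unadjusted p under 0.05. Idh3a, the catalytic subunit of isocitrate dehydrogenase, rose by 0.68 in CD49f-high (limma adjusted p = 0.02), while Pdhb of pyruvate dehydrogenase rose by 0.55 (limma adjusted p = 0.0144) and Ogdh of the oxoglutarate complex by 0.51 (limma adjusted p = 0.0298) in CD49f-low. Without CD49f-high replicate 1 the list had 8 higher in CD49f-low and 1 in CD49f-high, against 15.3% and 12.0% of all rows. After median-of-ratios scaling it had none in CD49f-low and 1 in CD49f-high, against 5.03% and 11.8% of all rows. Of 20 electron carriers and nucleotide exchangers, 2 were higher in CD49f-low and 3 in CD49f-high than in CD49f-neg, again near those shares of all rows. Slc25a3, the phosphate carrier, rose by 0.55 in CD49f-high (limma adjusted p = 0.0101), and Gpd2, a dehydrogenase that feeds ubiquinone, by 0.49 in CD49f-low (limma adjusted p = 0.0303). Without CD49f-high replicate 1 the counts were 4 and 1 (15.3% and 12.0% of all rows). After median-of-ratios scaling they were 0 and 1 (5.03% and 11.8% of all rows).

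Few assembly factors were called. Of 30 tested for complexes II to V, 2 were higher in CD49f-low and 2 in CD49f-high than in CD49f-neg, and 2 were lower in CD49f-high than in CD49f-low. These counts were below the shares of all rows, 12.8%, 13.9% and 10.5%. Coa7, a factor of complex IV, stood at 1.03 ± 0.199, 1.88 ± 0.0824 and 1.86 ± 0.269 FPKM from negative to high (SD, n = 3). It was called in both positive gates over CD49f-neg, at levels near the filter of 1 FPKM. Its call in CD49f-low was lost after median-of-ratios scaling, where 0 of the 30 were called between CD49f-low and CD49f-neg. Sdhaf2, which attaches the flavin to Sdha, rose by 0.42 in CD49f-low over CD49f-neg (limma adjusted p = 0.042) and was lower in CD49f-high than in CD49f-low, a difference of -0.49 (limma adjusted p = 0.0196). Both calls of Sdhaf2 were lost after median-of-ratios scaling. Of 7 tested assembly factors of complex I with other names, limma called none in any comparison, with 1, 2 and 0 at an unadjusted p under 0.05 in the same order as above. Between CD49f-high and CD49f-neg 1 was called lower after median-of-ratios scaling (11.1% of all rows), and 1 higher with the replicate block (19.7% of all rows).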

How the data were processed

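Sorted cells went into Trizol for total RNA and NEBNext Ultra was the library kit, per the labels' protocols. The authors deposited a table of FPKM values, 1 column per library. FastQC, TopHat2, StringTie and the build GRCm38 are named in the submitters' processing notes, with no versions, and the use of strand is not given in the sources used here. Coordinates are those of the deposited table. Values of single-exon genes fell in whole steps (98.8% to 99.3% within 0.1 of a step), which put the depth at 0.941 to 1.08 of CD49f-neg replicate 1. The absolute depth was not derived.

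Rows had to reach 1 FPKM in 3 or more libraries, and a pseudocount of 1 was added before log2. All 20523 such rows were fitted in R 4.3.3 by limma 3.58.1 (a mean per gate, empirical Bayes with trend, 6 residual degrees of freedom), with Benjamini-Hochberg adjustment over all rows and a call at an adjusted p under 0.05. The labels do not say that replicates were separate animals, so the p-values rest on the spread of these samples alone, which may be technical. Libraries of the same replicate number deviated together (correlation 0.252 to 0.52 over rows, against -0.453 to 0.118 for different numbers), while the labels give no source of the pairing, and the number entered as a block in an alternative.

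Members and lists were chosen with earlier results of these data known. Named genes are the tissue and testis isoforms and their partners, per role up to 4 members called by the F test and the most abundant, per comparison up to 5 called in each direction, the rows of mitochondrial DNA, and up to 3 called genes per list. Further settings tried were no filter, a filter at 5 FPKM, a pseudocount of 0.1, scaling by median of ratios, quantile normalization, a fit without trend, each library left out, a fit on the 6 libraries compared and rows with 1 symbol. The fit was tested on simulated data. Python 3.11.15 was used for tables.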

Additional observations from a re-analysis of the deposited data

How the results depend on the processing

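Between CD49f-low and CD49f-neg 2 members were called in the fit as reported (15.4% of all rows), 1 with no filter (3.19%), 0 after scaling by median of ratios (11.03%, with 3 members at an unadjusted p under 0.05), 1 with quantile normalization (9.96%), 8 with the replicate block (28.3%) and 17 in a fit on the 6 libraries compared (17.0%). Leaving out each library in turn gave 0 to 18 calls (7.86% to 18.3% of all rows), 18 without CD49f-high replicate 1, 1 when CD49f-neg replicate 1 or 3 or CD49f-low replicate 2 was dropped, and 0 for CD49f-low replicate 3. Leaving out CD49f-high replicate 1 after median-of-ratios scaling, a setting chosen after seeing the data, gave 0. Between CD49f-high and CD49f-neg the 13 calls (22.1% of all rows) became 6 with no filter (5.96%) and 6 in the fit on the 6 libraries compared (18.2%), and 6 to 17 with each library left out (15.8% to 22.7%), the fewest after dropping the first CD49f-neg library (7 after dropping replicate 2 of that gate, and 8 after dropping its replicate 3 or CD49f-low replicate 2 or 3). Between CD49f-high and CD49f-low the 6 calls (16.4% of all rows) became 3 with no filter (4.36%), and 3 to 9 with each library left out (10.7% to 17.5%), the fewest without CD49f-neg replicate 2, any CD49f-low library or CD49f-high replicate 3, the most without CD49f-high replicate 1. The 8 calls of the F test (28.5% of all rows) became 5 with no filter (7.48%), 15 with the replicate block (43.8%) and 6 to 22 with each library left out, 22 without CD49f-high replicate 1 (28.9%), alternatives of that test that were chosen after seeing the data. The cause of these changes was not tested. Of 21 called gene differences, 7 kept direction and call in all alternatives, the setting chosen after seeing the data included. They were Cox4i2 and Ndufa4l2 in both comparisons with CD49f-high, and Sdhc, Cox4i1 and Cox6c between CD49f-high and CD49f-neg. Ndufv1 between CD49f-high and CD49f-neg kept its call in the 17 other alternatives and lost it in that setting alone. Over all 21, 259 of 375 alternatives kept the call, 116 lost it and 0 reversed the direction. The pairing of replicate numbers added 6 calls between CD49f-low and CD49f-neg (Atp5sl, Ndufa1, Ndufaf7, Sdhb and Uqcrh higher and Ndufa4l2 lower), and gave 17 between CD49f-high and CD49f-neg (31.2% of all rows). It added Atp5d, Ndufaf7, Ndufs1, Uqcrh and mt-Nd6 there, lost Ndufs7, and changed no other call among the members. Rows joined with other genes and levels near 1 FPKM limit single values.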
